A study of Mus musculus with 88 samples.

Results

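The 7 genes described here, Celf5, Ptprv, Dcxr, Ces2e, Ddit4l, Hoatz and Abhd11os, had more RNA in irradiated than in untreated samples of 4 mouse tumours, after carbon ions and after gamma rays. They were picked by name with the responses on these arrays already known, and what picked them was the irradiated minus untreated difference in the 4 tumours. Those differences are therefore given as a description, with no test. Each gene was read from the probe with the highest mean over the 88 arrays among the probes that carried its symbol. They are 7 of 13465 genes tested, of 18069 genes with a probe and of 36227 probes. All 7 passed the filter that left out the dimmest 25% of genes. For Abhd11os, 32 of its 88 arrays lay below that filter's limit of -1.30 on the log2 scale, for Ces2e 14 and for Celf5 12, so that these 3 genes passed by the arrays on which they were bright.

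RNA of 4 tumours grown in the hind legs of C3H/HeNrs mice was measured on single-colour arrays. Per the labels, the squamous cell carcinomas are NR-S1 and SCCVII and the fibrosarcomas are NFSa, of spontaneous origin, and #8520, which radiation induced, and each is 1 transplantable tumour. Tumours received 30 Gy of carbon ions, or 30 Gy or 50 Gy of gamma rays as the reference beam, and were taken at 6 h, day 1 and day 3. Untreated tumours were taken separately for the carbon and the gamma arm. The 44 groups of 2 arrays thus hold 72 irradiated and 16 untreated arrays, 22 per tumour. The question of the design is how the response to carbon ions compares with that to gamma rays. Nothing in the labels tells if both arrays of a group stand for separate animals, so the p-values below measure only the spread between these arrays, which may be technical.

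Ionising radiation breaks DNA. In cells with working p53 the damage signal stabilises this transcription factor, which switches on genes for cell-cycle arrest such as Cdkn1a, for cell death such as Pmaip1, and for its own inhibitor Mdm2. Ptprv, a receptor-type tyrosine phosphatase of mouse osteoblasts, is known as a p53 target in that species. Ddit4l is a paralogue of the stress-induced gene Ddit4 and restrains growth signalling through mTOR. Celf5 belongs to a family of RNA-binding proteins that control splicing and is best known from brain. Dcxr reduces xylulose and reactive dicarbonyls, Ces2e is a carboxylesterase that splits esters, and Hoatz is needed for motile cilia and sperm flagella in mice. Abhd11os is a long non-coding RNA that overlaps Abhd11, and RefSeq lists Ptprv as a transcribed pseudogene.

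The promoters of Celf5 and Ddit4l are shown because they alone held a match to the decamer of the p53 response element among the 10 promoter windows that RefSeq (GRCm38.p6) gave for 6 of the 7 genes. The motif was searched on both strands, in windows that run 250 bases before to 50 after a gene's start. The decamer, in capitals, begins at position -182 from the start in Celf5, in the window chr10:81482650-81482949 on the minus strand. In Ddit4l it begins at position -90, in the window chr3:137623422-137623721 on the plus strand.
Celf5: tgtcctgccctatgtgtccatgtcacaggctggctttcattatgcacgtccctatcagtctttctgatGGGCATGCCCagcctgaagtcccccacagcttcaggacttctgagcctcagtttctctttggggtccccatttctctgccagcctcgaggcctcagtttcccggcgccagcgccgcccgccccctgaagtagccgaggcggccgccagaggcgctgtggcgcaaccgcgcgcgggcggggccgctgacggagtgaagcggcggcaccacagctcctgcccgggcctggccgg
Ddit4l: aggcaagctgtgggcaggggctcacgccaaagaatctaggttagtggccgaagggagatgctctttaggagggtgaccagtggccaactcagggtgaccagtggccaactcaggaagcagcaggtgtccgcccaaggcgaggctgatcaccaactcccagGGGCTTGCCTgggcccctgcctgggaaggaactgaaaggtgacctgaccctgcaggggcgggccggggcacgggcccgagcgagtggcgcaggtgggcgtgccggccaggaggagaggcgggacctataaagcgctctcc
The decamer was found in 8.36% of all 32851 promoters of this length. The complete response element, a pair of decamers at most 13 bases apart with at most 2 mismatches in all, was found in 0 of these 6 genes and in 4.09% of all promoters. The other windows of Celf5 and the windows of Dcxr, Ces2e, Hoatz and Abhd11os held no decamer. A match describes letters of the sequence, and is neither a binding site nor a cause.

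On 8 arrays, those of SCCVII and #8520 at day 1 and day 3 after 50 Gy of gamma rays, the dim end was raised. These had a 1st percentile between 0.297 and 0.378 in intensity, and the remaining 80 arrays one between 0.0128 and 0.134, while medians were 1.02 to 1.07 throughout. Arrays within a group had correlations of 0.990 to 0.998 across genes. The 6 epithelial markers (Krt5, Krt14, Krt17, Epcam, Cdh1 and Esrp1) summed to an intensity of 815 to 1416 in untreated NR-S1 and to 1.55 to 2.34 in untreated SCCVII, so that these markers were near the dim end in SCCVII although it is labelled a carcinoma. Results at 50 Gy are given below with and without SCCVII and #8520.

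Across the 36 irradiated groups, the group mean of each of the 7 genes lay above that of its own untreated group in 252 of 252 instances. Both irradiated arrays lay above both untreated arrays in 251 of 252, or 99.6%. Over all genes this was so in 31.7% of the pairs of gene and group. The exception was Abhd11os in SCCVII at 6 h after 50 Gy, with log2 intensities of -2.28 and -2.54 against -3.21 and -2.46 in the untreated tumours. Of 13465 genes, 21 stood apart in this way in all 36 groups, and 6 of the 21 are among the 7 genes described. At 30 Gy alone, 37 genes stood apart in all 24 groups, all 7 among them. Because the genes were chosen for these differences, the counts describe the choice. In bulk RNA, more cells of a type and more RNA per cell cannot be told apart.

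**Figure D1:**
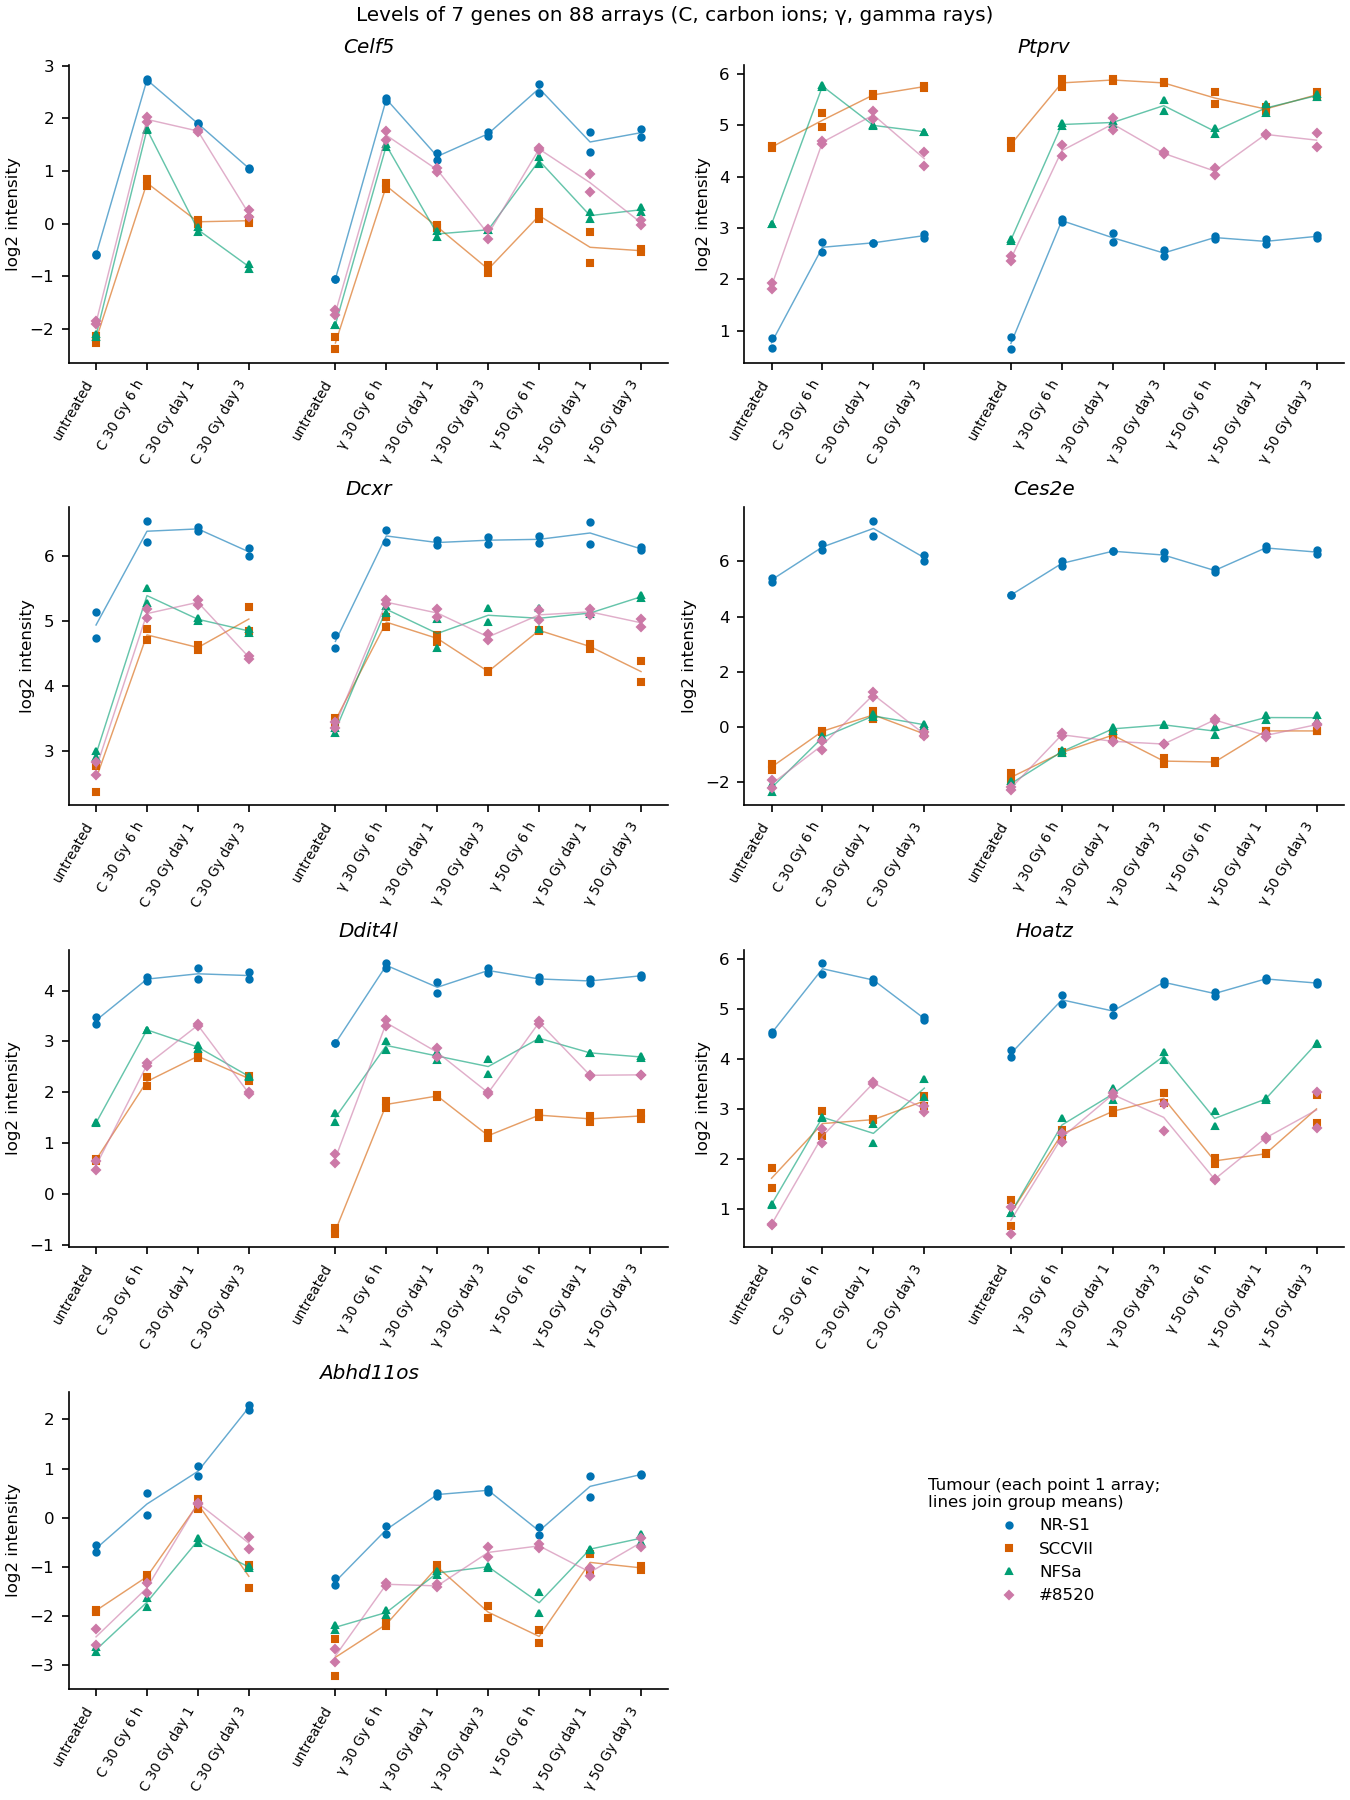
Log2 intensity of each of the 7 genes on every array, against treatment and time, with the carbon arm left of the gamma arm in each panel; each point is 1 array, colours and symbols mark the tumour, and lines join group means. For each gene and arm, both irradiated arrays lie above both untreated arrays of their tumour, apart from Abhd11os in SCCVII at 6 h after 50 Gy.

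Celf5, the RNA-binding protein, was near the dim end in untreated tumours and had the largest response of the 7 genes at 6 h. In NR-S1 the 18 irradiated arrays ran from 1.04 to 2.75 (median 1.77), and the 4 untreated arrays from -1.05 to -0.59. In NFSa the irradiated arrays ran from -0.86 to 1.80 (median 0.15), and the untreated arrays from -2.16 to -1.92. In each of the 4 tumours, 18 of 18 irradiated arrays lay above every untreated array. At 6 h after carbon ions Celf5 read 1.80 and 1.77 in NFSa, against -2.10 and -2.16 in the untreated tumours of that arm, and this difference of 3.91 was the largest of any of the 7 genes in any group. The mean over the 4 tumours at 6 h was 3.52 ± 0.06 after carbon ions (SE between arrays, n = 8 arrays). Since 3 of the 4 untreated groups lay below the filter's limit, only a bound was taken from it, at least 7.66-fold with these groups set to the limit. It was 3.29 after 30 Gy and 3.06 after 50 Gy of gamma rays. By this mean Celf5 ranked 3rd of 13415 genes at 6 h after carbon ions and 2nd of 13434 genes after 30 Gy of gamma rays. At day 1 the Celf5 means were 2.60 after carbon ions and 2.24 after either gamma dose, and at day 3 they were 1.82, 1.86 and 2.10 after carbon ions, 30 Gy and 50 Gy of gamma rays. In every course, a course being 1 tumour under 1 treatment, Celf5 was highest at 6 h (12 of 12).

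Ptprv, the receptor-type phosphatase, had nearly the same mean response at the 3 times after 30 Gy of either beam. In NR-S1 the irradiated arrays ran from 2.46 to 3.17 (median 2.79), and the untreated arrays from 0.63 to 0.87. In #8520 the irradiated arrays ran from 4.04 to 5.27 (median 4.63), and the untreated arrays from 1.82 to 2.45. In SCCVII, where untreated Ptprv was already bright, the irradiated arrays ran from 4.96 to 5.91 (median 5.65), and the untreated arrays from 4.56 to 4.70. The irradiated and untreated arrays overlapped in no tumour, and the gap was narrowest in SCCVII. Mean responses over the tumours lay between 1.70 (6 h after 50 Gy) and 2.06 (day 1 after 30 Gy of gamma rays), or 3.24-fold to 4.16-fold. After carbon ions they were 1.97, 2.05 and 1.89 at 6 h, day 1 and day 3, with an SE of 0.05 between arrays. A 2nd probe with the symbol Ptprv was below the filter's limit on 73 of 88 arrays, and its mean responses were -0.11 to 0.85, so the Ptprv values rest on 1 probe. Which of both probes reads the Ptprv transcript could not be settled, and the mean of both gave responses of 0.86 to 1.38.

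Dcxr, the dicarbonyl and xylulose reductase, had larger mean responses after carbon ions than after gamma rays, each against its own untreated arm. In SCCVII the irradiated arrays ran from 4.06 to 5.22 (median 4.69), and the untreated arrays from 2.37 to 3.51. In NR-S1 the irradiated arrays ran from 6.01 to 6.55 (median 6.23), and the untreated arrays from 4.58 to 5.13. No irradiated array of any tumour overlapped its untreated arrays. Mean Dcxr responses were 2.12, 2.04 and 1.80 at 6 h, day 1 and day 3 after carbon ions (SE 0.07), and 1.72, 1.50 and 1.36 after 30 Gy of gamma rays. After 50 Gy they were 1.60, 1.59 and 1.45. Against the untreated arrays of both arms the order did not hold at 6 h and day 3. The Dcxr means were then 1.91, 1.82 and 1.59 after carbon ions, 1.93, 1.71 and 1.57 after 30 Gy and 1.81, 1.80 and 1.66 after 50 Gy of gamma rays.

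Ces2e, the carboxylesterase, was bright in NR-S1 and dim in the other 3 tumours, and was higher after irradiation in all 4. In NR-S1 the irradiated arrays ran from 5.61 to 7.47 (median 6.35), and the untreated arrays from 4.78 to 5.41. In NFSa the irradiated arrays ran from -0.96 to 0.45 (median 0.05), and the untreated arrays from -2.35 to -1.97. In SCCVII the lowest irradiated array, at -1.34, lay just above the highest untreated array, at -1.36, which belongs to the other arm. Mean responses were 1.43, 2.40 and 1.53 at 6 h, day 1 and day 3 after carbon ions (SE 0.06). They were 1.29, 1.70 and 1.44 after 30 Gy of gamma rays, and 1.46, 1.93 and 1.99 after 50 Gy. Ces2e was highest at day 1 in 9 of 12 courses. With the 3 untreated groups below the filter's limit set to it, the 6 h means were at least 0.97 after carbon ions. They were then at least 0.73 after 30 Gy and 0.90 after 50 Gy of gamma rays.

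Ddit4l, the paralogue of Ddit4, had mean responses over the 9 conditions of 2.10 in SCCVII and 2.01 in #8520. They were 1.16 in NR-S1 and 1.32 in NFSa. At 6 h after carbon ions, however, SCCVII (1.54) was below NFSa (1.83). Untreated SCCVII split by arm, with -0.78 and -0.66 in the gamma arm and 0.69 and 0.66 in the carbon arm. Its responses to gamma rays are thus taken from a lower level. In SCCVII the irradiated arrays ran from 1.10 to 2.74 (median 1.76), and the untreated arrays from -0.78 to 0.69. In NR-S1 the irradiated arrays ran from 3.96 to 4.54 (median 4.26), and the untreated arrays from 2.96 to 3.49. The arrays overlapped in no tumour. Mean responses over the tumours were 1.54, 1.80 and 1.20 at 6 h, day 1 and day 3 after carbon ions (SE 0.04). They were 2.02, 1.76 and 1.40 after 30 Gy of gamma rays, and 1.94, 1.58 and 1.60 after 50 Gy.

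Hoatz, the cilium gene, was bright in NR-S1 and had its largest responses in NFSa. In NFSa the irradiated arrays ran from 2.33 to 4.33 (median 3.19), and the untreated arrays from 0.93 to 1.11. In NR-S1 the irradiated arrays ran from 4.79 to 5.93 (median 5.51), and the untreated arrays from 4.05 to 4.54. The arrays overlapped in no tumour. The smallest response of Hoatz, 0.29, was that of NR-S1 at day 3 after carbon ions, with 4.79 and 4.84 in irradiated against 4.51 and 4.54 in untreated tumours. Mean responses were 1.47, 1.62 and 1.62 at 6 h, day 1 and day 3 after carbon ions (SE 0.09), 1.51, 1.94 and 2.22 after 30 Gy of gamma rays, and 1.23, 1.65 and 2.27 after 50 Gy. A 2nd Hoatz probe gave mean responses of 1.25 to 2.14 over the same 9 conditions.

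Abhd11os, the non-coding RNA, had its smallest responses at 6 h and was near the dim end on many arrays. In NR-S1 the irradiated arrays ran from -0.35 to 2.29 (median 0.52), and the untreated arrays from -1.37 to -0.56. In SCCVII the irradiated arrays ran from -2.54 to 0.38 (median -1.12), and the untreated arrays from -3.21 to -1.86. There, 13 of 18 irradiated arrays lay above every untreated array, while in the other 3 tumours 18 of 18 did. Mean responses were 0.89, 2.17 and 1.79 at 6 h, day 1 and day 3 after carbon ions (SE 0.08), and 0.87, 1.53 and 1.53 after 30 Gy of gamma rays. After 50 Gy they were 1.05, 1.79 and 2.03 with the deposited scaling, while with quantile normalization the Abhd11os values at day 1 and day 3 were 0.73 and 1.27.

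**Figure D2:**
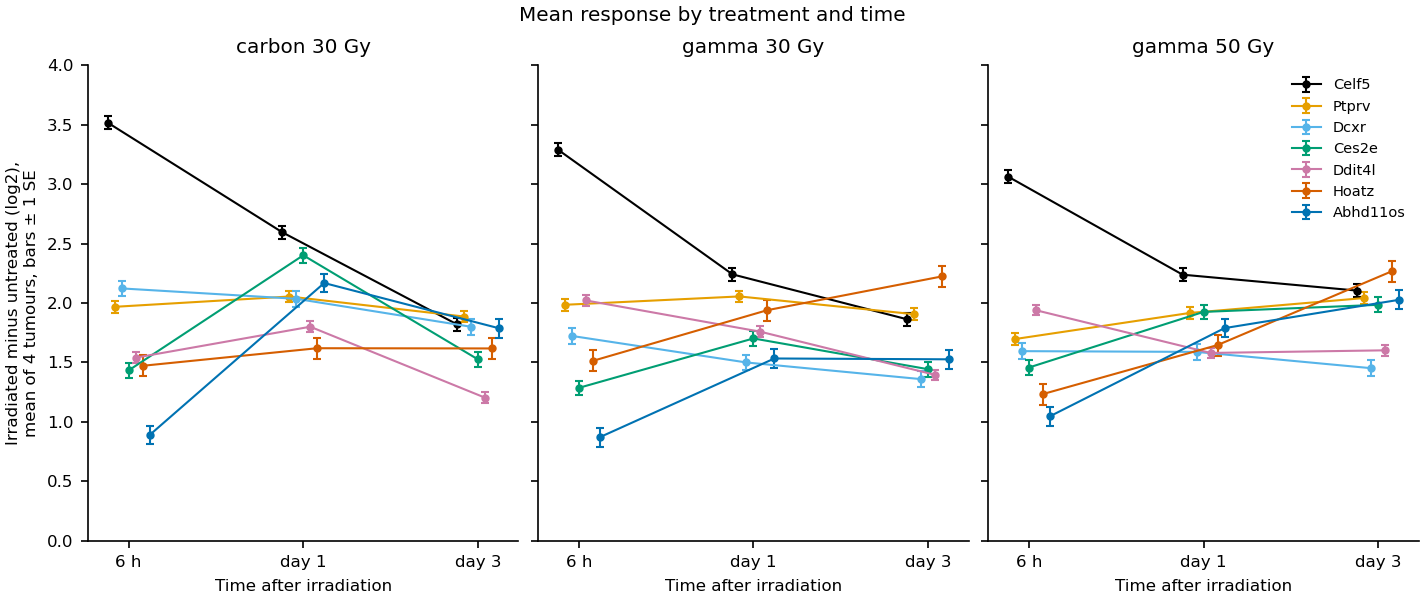
Irradiated minus untreated log2 intensity of the 7 genes at 6 h, day 1 and day 3, as the mean of 4 tumours with bars of 1 SE between arrays, for carbon ions 30 Gy, gamma rays 30 Gy and gamma rays 50 Gy. Celf5 is the highest at 6 h in each panel (3.52, 3.29 and 3.06), Ptprv runs nearly level after 30 Gy, and Abhd11os is the lowest at 6 h in each panel (0.89, 0.87 and 1.05).

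The 8 arrays with the raised dim end enter only the 50 Gy values at day 1 and day 3. Over NR-S1 and NFSa alone, a choice made after seeing the data, the mean responses at day 1 after 50 Gy were 2.34 for Celf5, 2.28 for Ptprv, 1.74 for Dcxr, 2.05 for Ces2e, 1.25 for Ddit4l, 1.88 for Hoatz and 1.76 for Abhd11os. At day 3 they were 2.48, 2.45, 1.74, 1.98, 1.26, 2.40 and 1.99 in the same order. All 7 genes were thus higher than in untreated tumours without these arrays too.

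Levels of the 7 genes in untreated tumours were tested too. The choice rested on responses, and a low untreated level makes a response larger, so these levels are not wholly independent of the choice. All 7 differed between the 4 tumours in limma's moderated F test, with adjusted p-values of 2.4e-20 or lower, and so did 91.3% of all genes. For Celf5, Ces2e and Abhd11os, which passed the filter by their bright arrays, the count is a description only. Ces2e had the widest spread. Its untreated log2 intensity was 5.06 ± 0.32 in NR-S1 against -1.65 ± 0.26 in SCCVII (SD, n = 4 arrays each). The SCCVII level lies below the filter's limit, and set against that limit the difference was at least 81.8-fold. NFSa and #8520 read -2.14 and -2.15, below the limit too, so no order was read among the 3 dim tumours. NR-S1 was also the highest for Celf5 (-0.82), Dcxr (4.82), Ddit4l (3.19), Hoatz (4.32) and Abhd11os (-0.96). Ptprv ran the other way, with 4.60 ± 0.07 in SCCVII, 2.92 ± 0.18 in NFSa, 2.14 ± 0.31 in #8520 and 0.76 ± 0.12 in NR-S1, each step of which passed the test.

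Below NR-S1, the untreated order of the other 3 tumours was distinct for some genes and not for others. Dcxr read 3.13 in NFSa, 3.07 in #8520 and 3.02 in SCCVII, with adjusted p-values (limma) of 0.57 and 0.7 for the steps between them. Hoatz read 1.28 in SCCVII, 1.02 in NFSa and 0.74 in #8520, with 0.063 and 0.058. Abhd11os read -2.36 in SCCVII, -2.45 in NFSa and -2.61 in #8520, and Celf5 read -1.79 in #8520, -2.02 in NFSa and -2.24 in SCCVII. All these levels lie below the filter's limit, and no order was read from them. Each step passed for Ddit4l, with 1.45 ± 0.10 in NFSa, 0.63 ± 0.13 in #8520 and -0.02 ± 0.81 in SCCVII. The wide SD of Ddit4l in SCCVII came with a split by arm, -0.78 and -0.66 in the gamma arm and 0.69 and 0.66 in the carbon arm. In #8520 the Ddit4l arrays read 0.61 and 0.79 in the gamma arm and 0.47 and 0.64 in the carbon arm, so that SCCVII was below #8520 in the gamma arm and slightly above it in the carbon arm.

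The size of the response differed between tumours for most of the 7 genes. The genes were chosen on the responses of all 4 tumours, so that a small difference between tumours is no independent evidence of steadiness. Celf5, Ces2e and Abhd11os passed the filter by their bright arrays, and 3 of their 4 untreated groups per arm lay below its limit. For these 3 genes the calls here and in the beam, dose and time tests below are a description only. In the moderated F test over the 4 tumours, 6 of 7 genes passed at 6 h after carbon ions (45% of all genes), 7 of 7 at day 1 (58.3%) and 7 of 7 at day 3 (61.9%). After 30 Gy of gamma rays 4 of 7 passed at 6 h (36.9%), 5 of 7 at day 1 (52.4%) and 7 of 7 at day 3 (56%). The genes that did not pass were Abhd11os at 6 h after carbon ions (adjusted p = 0.59, limma), Celf5 (0.057), Dcxr (0.21) and Hoatz (0.092) at 6 h after gamma rays, and Dcxr (0.16) and Ces2e (0.097) at day 1 after gamma rays. With quantile normalization the calls of Celf5 at 6 h after carbon ions (adjusted p = 0.647, limma) and of Abhd11os at 6 h and day 1 after gamma rays (0.0958 and 0.205) were lost. The call of Hoatz at 6 h after carbon ions (adjusted p = 0.044, limma) was lost in 12 of 16 omissions of a single array.

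Ptprv had the widest spread between tumours at 6 h and day 1 after carbon ions. At 6 h its response was 1.86 in NR-S1, 0.52 in SCCVII, 2.69 in NFSa and 2.80 in #8520 (adjusted p = 7.9e-20, limma). SCCVII had the lowest Ptprv response in 9 of 9 conditions, a condition being 1 treatment at 1 time, and had the highest untreated Ptprv level. Without SCCVII, the tumour difference of Ptprv at 6 h after 30 Gy of gamma rays did not pass (adjusted p = 0.243, limma). Ddit4l was lowest in NR-S1 in 6 of 9 conditions and highest in SCCVII in 5. At day 1 after 30 Gy of gamma rays its response was 1.10 in NR-S1, 2.65 in SCCVII, 1.21 in NFSa and 2.08 in #8520 (adjusted p = 2.2e-16, limma). Untreated Ddit4l in SCCVII was lower in the gamma arm than in the carbon arm. The part of this split in the tumour difference was not tested.

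Hoatz was likewise lowest in NR-S1 in 6 of 9 conditions, but highest in NFSa in 6. At day 3 after carbon ions it was higher than untreated by 0.29 in NR-S1, 1.55 in SCCVII, 2.32 in NFSa and 2.31 in #8520 (adjusted p = 3.6e-10, limma). Abhd11os stood the other way at that time, with 2.87 in NR-S1, 0.70 in SCCVII, 1.68 in NFSa and 1.91 in #8520 (adjusted p = 8.8e-11, limma). Celf5 was highest in NR-S1 in 5 conditions, Dcxr lowest in SCCVII in 6, and Ces2e highest in NFSa in 6. Several of these calls rest on 1 tumour. Without NR-S1 the tumour difference of Dcxr at 6 h after carbon ions had an adjusted p of 0.568, and without #8520 that of Hoatz at day 1 after carbon ions had 0.466 (both limma). Celf5 at day 3 after gamma rays had 0.0738 without NR-S1, and Ces2e at 6 h after gamma rays had 0.483 without #8520 (both limma).

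**Figure D3:**
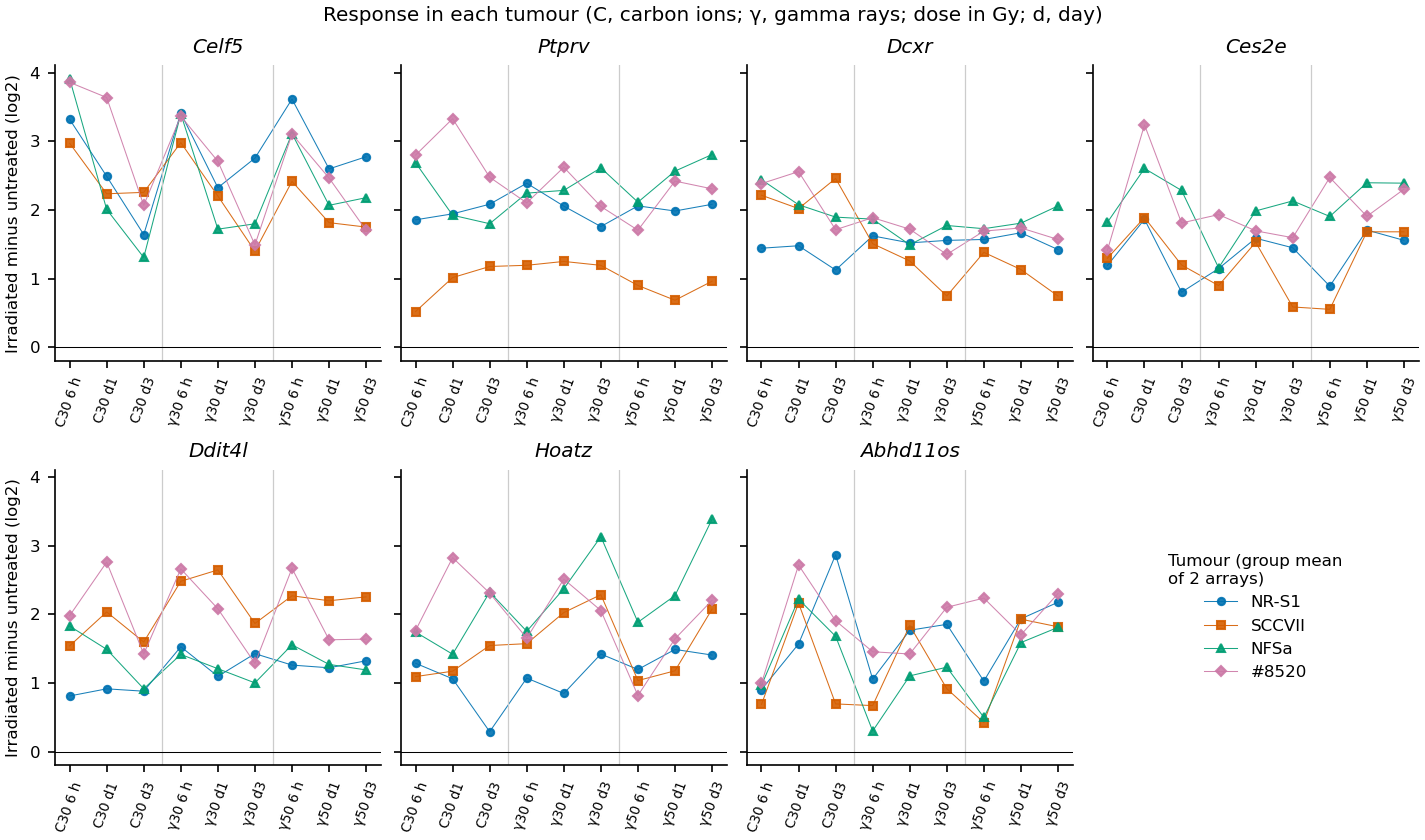
Irradiated minus untreated log2 intensity of each of the 7 genes in each of the 4 tumours, for the 9 conditions of beam, dose and time. Each point is the group mean of 2 arrays of 1 tumour. Lines run through all 9 conditions of a tumour and so also join different treatments. The Ptprv points of SCCVII lie below those of the other tumours in all 9 conditions, and Hoatz in NR-S1 comes nearest to 0, at 0.29.

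The beams were compared as the response to 30 Gy of carbon ions minus the response to 30 Gy of gamma rays, each against its own untreated arm. At 6 h, 3 of 7 genes passed (15.9% of all genes). Celf5 was higher after carbon ions by 0.23 (95% interval 0.07 to 0.38, adjusted p = 0.038, limma), with -0.09 in NR-S1 and -0.01 in SCCVII and values of 0.51 for NFSa and 0.49 for #8520. This call was lost with median centring (0.21) and in 16 of 32 omissions of a single array (0.20 to 0.26). Dcxr was higher by 0.40 (adjusted p = 0.0014, limma) and Ddit4l lower, at -0.48 (adjusted p = 3.7e-08, limma), each in 3 of 4 tumours. At day 1, 4 of 7 genes were higher after carbon ions (25.1% of all genes passed in either direction). These were Celf5 by 0.35, Dcxr by 0.54, Ces2e by 0.70 and Abhd11os by 0.63, with adjusted p-values of 0.00044, 1e-05, 8.4e-09 and 1.2e-05 (limma). Ces2e was higher in 4 of 4 tumours, by 0.28 in NR-S1, 0.36 in SCCVII, 0.62 in NFSa and 1.54 in #8520. Celf5 was higher in 4 of 4 as well, and Dcxr and Abhd11os in 3 of 4. At day 3, 3 of 7 passed (36%), with Dcxr higher by 0.44 (adjusted p = 0.00014) and Ddit4l and Hoatz lower, at -0.19 (0.013) and -0.61 (1e-04), each in 3 of 4 tumours (all limma). The Dcxr mean at day 3 joins 1.71 in SCCVII with -0.43 in NR-S1, 0.12 in NFSa and 0.36 in #8520. Ptprv passed at no time, with 95% intervals of -0.16 to 0.12 at 6 h, -0.14 to 0.14 at day 1 and -0.16 to 0.12 at day 3. These are intervals of a mean over tumours that went opposite ways. At 6 h Ptprv had -0.53 in NR-S1, -0.67 in SCCVII, 0.44 in NFSa and 0.70 in #8520. At day 3 it had 0.33, -0.02, -0.81 and 0.43 in the same order.

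The untreated arms themselves differed for 5 of the 7 genes (60.2% of all genes). Untreated tumours of the gamma arm were higher than those of the carbon arm by 0.42 for Dcxr (3.72 and 3.30, adjusted p = 2.4e-07, limma). They were lower for Ces2e, Ddit4l, Hoatz and Abhd11os, with differences of -0.23, -0.40, -0.29 and -0.39. For Celf5 (-0.03) and Ptprv (0.07) the arms did not differ beyond their spread. With the irradiated groups compared directly, without the untreated arms, no Dcxr difference passed (-0.02, 0.11 and 0.02 at 6 h, day 1 and day 3). The Ddit4l difference at 6 h was then -0.08 and did not pass, while Ddit4l was higher after carbon ions at day 1 and day 3, by 0.44 and 0.21, and passed at both. Ces2e differences were 0.38, 0.93 and 0.31, and Abhd11os differences 0.41, 1.02 and 0.65, and all 6 passed. The Celf5 differences at 6 h and day 1 were 0.26 and 0.38 and passed in both of these comparisons, as did Ces2e and Abhd11os at day 1 and Hoatz at day 3 (-0.31).

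With each tumour counted as 1 replicate, 0 of the 7 genes and 0 of all genes passed for a beam difference at any time in limma. At an unadjusted p under 0.05, 717, 867 and 1520 of all genes did so at 6 h, day 1 and day 3, with Dcxr at 6 h, Dcxr, Ces2e and Abhd11os at day 1 and Hoatz at day 3 among them. Cell type markers moved with the beam too. Of 6 neutrophil markers 5, 6 and 6 were higher after carbon ions than after gamma rays at 6 h, day 1 and day 3, with median differences of 0.73, 2.09 and 1.26, and all 4 T and NK cell markers tested were higher at each time. All 6 skeletal muscle markers were lower at 6 h (median -0.63) and higher at day 1 (0.97) and day 3 (0.83). Fibroblast markers were higher in 2, 4 and 4 of 6, and macrophage markers in 0, 2 and 4 of 4, with a median of 0.71 at day 3. Of all genes 15.9%, 25.1% and 36% passed for the beam at these times, in either direction. The part of the markers in the differences of the 7 genes was not tested.

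**Figure D4:**
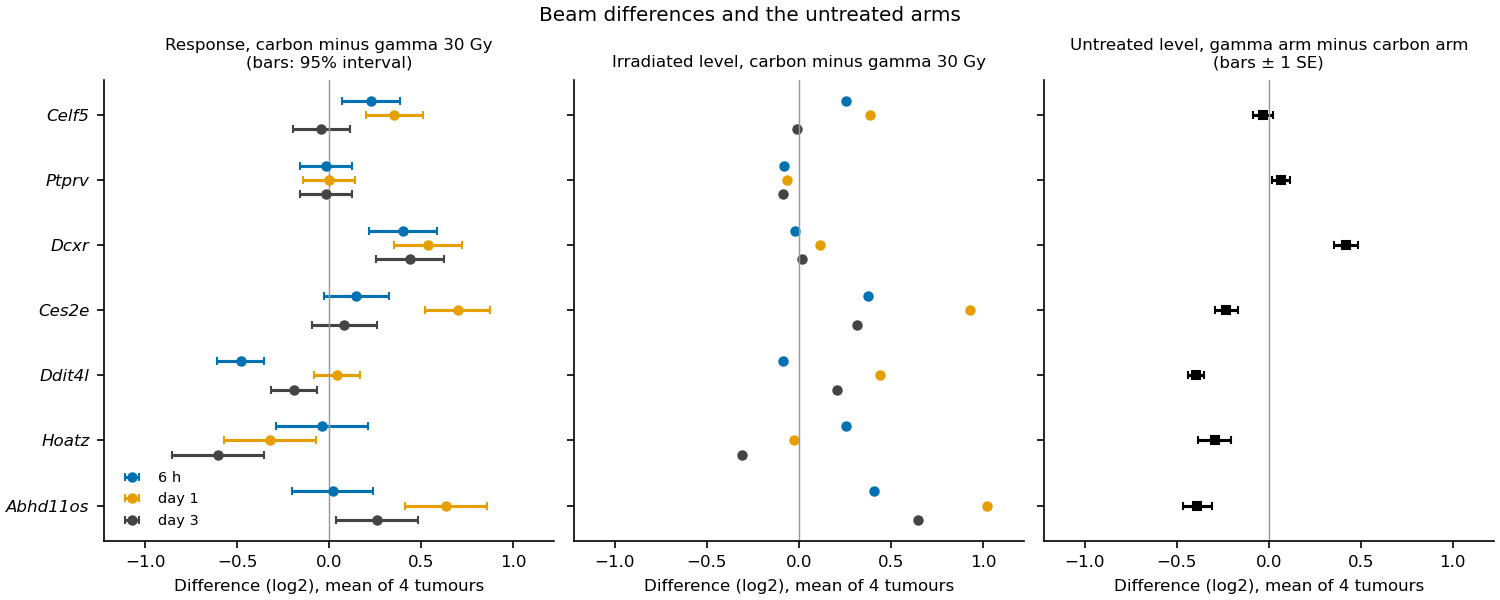
Beam comparison of the 7 genes at 6 h, day 1 and day 3, on the log2 scale as means of 4 tumours. Left, response to carbon ions minus response to gamma rays 30 Gy with 95% intervals; middle, irradiated level after carbon ions minus that after gamma rays; right, untreated level of the gamma arm minus that of the carbon arm with bars of 1 SE. Each left value is the sum of its middle and right values, and Dcxr lies near 0 in the middle panel (-0.02, 0.11 and 0.02) and at 0.42 in the right one.

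The gamma doses were compared as 50 Gy minus 30 Gy, which share the untreated arm. At 6 h, 4 of 7 genes passed (27.1% of all genes), with Celf5 (-0.23), Ptprv (-0.29) and Hoatz (-0.28) lower at 50 Gy and Ces2e higher by 0.17. Ptprv was lower at 50 Gy in 4 of 4 tumours (adjusted p = 6.7e-06, limma). At day 1, 5 of 7 passed (62.8%), with Ptprv (-0.14), Ddit4l (-0.18) and Hoatz (-0.29) lower and Ces2e and Abhd11os higher by 0.22 and 0.26. At day 3, 5 of 7 passed, all higher at 50 Gy (59.5% of all genes passed in either direction). These were Celf5 by 0.24, Ptprv by 0.14, Ces2e by 0.54, Ddit4l by 0.21 and Abhd11os by 0.50, with adjusted p-values of 0.00019, 0.017, 1.5e-10, 8e-05 and 3.1e-07 (limma). Celf5, Ces2e and Abhd11os were higher in 4 of 4 tumours at day 3. Leaving out a single array ended the Ces2e call at 6 h in 8 of 16 omissions, and the Ptprv calls at day 1 and day 3 in 3 and 2 of 16. Dcxr passed at no time, with 95% intervals of -0.26 to 0.003, -0.04 to 0.22 and -0.04 to 0.22 at 6 h, day 1 and day 3.

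Over NR-S1 and NFSa alone, which leaves 2 of 4 tumours in the comparison, 1, 1 and 2 of the 7 genes passed for dose at 6 h, day 1 and day 3. The count was lower at 6 h too, where no array with the raised dim end enters, and the part of those arrays was not tested. These were Ptprv at 6 h (-0.23), Celf5 at day 1 (0.31), and Ptprv (0.26) and Abhd11os (0.45) at day 3. Over these tumours the day 1 differences of Ptprv, Ddit4l and Hoatz turned to 0.105, 0.09 and 0.27 and did not pass. With quantile normalization the Abhd11os difference turned to -0.60 at day 1, which passed, and to -0.06 at day 3, which did not, and the day 1 differences of Ptprv and Ddit4l turned to 0.09 and 0.01. With each tumour as 1 replicate, 0 of 7 genes and 0 of all genes passed at any time in limma. At an unadjusted p under 0.05, 1145, 1240 and 1167 of all genes did so, with Ptprv at 6 h, none of the 7 at day 1, and Ces2e and Abhd11os at day 3. Cell type markers moved with dose. Of 6 neutrophil markers 6, 6 and 5 were higher at 50 Gy at 6 h, day 1 and day 3, with medians of 0.68, 0.75 and 0.41. Of 6 epithelial markers 0, 4 and 6 were higher, with medians of 0.06, 0.68 and 0.56. In untreated tumours they summed to 1.55 to 2.34 in SCCVII and 1.98 to 2.22 in #8520, against 815 to 1416 in NR-S1. The NFSa sums were 3.21 to 4.34. The arrays with the raised dim end enter at day 1 and day 3, and their part in these epithelial values was not tested. Of 6 skeletal muscle markers 5 were higher at 6 h, 4 lower and 1 higher at day 1 and 6 higher at day 3, with medians of 0.49, -0.32 and 1.06. Of 4 macrophage markers 3 were lower at 6 h, 3 lower and 1 higher at day 1 and 3 higher at day 3. Of all genes 27.1%, 62.8% and 59.5% passed for dose at these times, in either direction. The part of the markers in the dose differences of the 7 genes was not tested.

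Persistence was measured as the level at day 3 minus that at 6 h after the same treatment. The genes were chosen with the responses at these times known. A small difference between times is therefore no independent evidence of steadiness, and a level above untreated at day 3 describes the choice. Celf5 was lower at day 3 after each treatment, at -1.70 after carbon ions, -1.43 after 30 Gy and -0.96 after 50 Gy of gamma rays, in 12 of 12 courses (adjusted p = 1.9e-32, 8.3e-29 and 9.9e-22, limma). Celf5 nevertheless remained well above untreated at day 3, at least 2.36-fold, 2.58-fold and 3.05-fold over the 4 tumours with dim untreated groups set to the filter's limit. Ddit4l was lower at day 3 in 9 of 12 courses (-0.34, -0.63 and -0.34) and Dcxr in 10 of 12 (-0.32, -0.36 and -0.14). The last Dcxr value had an adjusted p of 0.046 (limma) and turned to 0.03 with quantile normalization and to 0.09 over NR-S1 and NFSa alone, neither of which passed.

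By their means over the tumours the other genes ran level or upward. Abhd11os was higher at day 3 in 12 of 12 courses, by 0.90, 0.66 and 0.98 (adjusted p = 1.2e-14, 5e-10 and 3.9e-16, limma). Hoatz was higher by 0.71 and 1.03 after 30 Gy and 50 Gy of gamma rays (adjusted p = 1.3e-09 and 3.8e-15, limma), and by 0.15 after carbon ions (0.15), where NR-S1 went the other way with -0.997. Ces2e was higher by 0.16 and 0.53 after the gamma doses, and its difference after carbon ions was 0.09 (adjusted p = 0.19, limma). Ptprv had -0.08 after carbon ions (95% interval -0.18 to 0.02) and -0.08 after 30 Gy of gamma rays (-0.18 to 0.02), and was higher by 0.35 after 50 Gy (adjusted p = 2.5e-08, limma). The Ptprv mean after carbon ions joins 0.23 in NR-S1, 0.66 in SCCVII, -0.89 in NFSa and -0.32 in #8520.

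Over the 7 genes, 4, 6 and 7 passed the time test after carbon ions (62.6% of all genes), 30 Gy (46.8%) and 50 Gy of gamma rays (71.4%), in both directions each time. With each tumour as 1 replicate 1, 0 and 0 of the 7 did in limma, the 1 being Celf5 after carbon ions (adjusted p = 0.037), with 2, 5 and 3 at an unadjusted p under 0.05. For all genes this fit gave 431, 4 and 82 calls, with 3178, 2407 and 2392 at an unadjusted p under 0.05. Of 6 neutrophil markers 5 were lower at day 3 than at 6 h after each treatment, with medians of -1.08, -1.84 and -1.96, and all 4 macrophage markers tested and all 4 T and NK cell markers tested were higher at day 3. Skeletal muscle markers were lower at day 3 in 3, 6 and 6 of 6, and 2 of 6 were higher after carbon ions, where the median was -0.12. The time calls of Ces2e after 30 Gy and of Dcxr after 50 Gy of gamma rays were lost in 8 and 11 of 16 omissions of a single array. The part of the markers in the courses of the 7 genes was not tested.

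For comparison, 42 established p53 target genes were followed, of which 37 had a probe and 36 were tested. Eda2r, Gls2, Gdf15, Lif and Bax had no probe of their own here and Xpc was below the filter. At 6 h after carbon ions 32 of 36 rose (21% of all genes) and 2 fell (19.5%), at day 1 31 rose (25.5%) and 0 fell (16.6%), and at day 3 21 rose (26.4%) and 2 fell (41.8%). After 30 Gy of gamma rays 31 rose (19.3%) and 2 fell (18.4%) at 6 h, 24 rose (21.2%) and 0 fell (21.7%) at day 1, and 23 rose (23.1%) and 1 fell (30.9%) at day 3. After 50 Gy 30 rose (22.8%) and 2 fell (26.9%) at 6 h, 27 rose (23.1%) and 3 fell (45.1%) at day 1, and 25 rose (28.7%) and 2 fell (44.7%) at day 3. Over NR-S1 and NFSa alone, 26 and 24 rose at day 1 and day 3 after 50 Gy. Where 0 fell, limma gave 0 genes at day 1 after carbon ions and 1 (Ddb2) at day 1 after 30 Gy of gamma rays at an unadjusted p under 0.05. Ddb2, a damage sensor of repair, and Sesn1, a stress-response sestrin, were the 2 that fell at 6 h after each treatment. Later, Ddb2 and Trp53inp1 fell at day 3 after carbon ions, Ddb2 at day 3 after 30 Gy, Plk3, Tigar and Triap1 at day 1 after 50 Gy, and Trp53inp1 and Triap1 at day 3 after 50 Gy. With each tumour as 1 replicate 18, 2 and 6 rose after carbon ions, 2, 1 and 2 after 30 Gy and 0, 0 and 0 after 50 Gy of gamma rays at 6 h, day 1 and day 3 (limma). At an unadjusted p under 0.05 these counts were 29, 23 and 14, then 23, 15 and 17, then 22, 16 and 12. The calls for the list thus rest on the spread between arrays of a group.

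The 7 genes had larger mean responses than most of this list. They were chosen for their responses and the list was not, so this contrast describes the choice and is no independent result. The median of the 7 genes was 1.54, 2.05 and 1.79 at 6 h, day 1 and day 3 after carbon ions, against 0.73, 0.69 and 0.21 for the p53 list and -0.01, 0.01 and -0.08 for all genes. After 30 Gy of gamma rays it was 1.72, 1.76 and 1.53 for the 7 genes, against 0.61, 0.39 and 0.36 for the list. Cdkn1a, the arrest gene, rose by 1.27, 1.13 and 1.14 after carbon ions. Ccng1, a cyclin switched on by p53, rose by 1.52, 1.51 and 0.85, and Mdm2 by 1.50, 0.96 and 0.74. Pmaip1, a promoter of apoptosis, rose by 1.54, 0.94 and 0.77, Fas, a death receptor, by 1.40, 0.92 and 1.11, and Btg2, an inhibitor of growth, by 1.35, 0.91 and 0.77. Pidd1, a death-domain protein of the damage response, rose by 1.04 and 0.81 at 6 h and day 1, and its day 3 value was -0.03 (adjusted p = 0.6, limma). At day 1 the lowest of the 7 genes lay close to the highest gene of the list, and the gap was not tested. These were Hoatz (1.62) and Ccng1 (1.51) after carbon ions, Dcxr (1.50) and Ephx1 (1.48) after 30 Gy of gamma rays, and Ddit4l (1.58) and Ephx1 (1.55) after 50 Gy. Over NR-S1 and NFSa alone, Ddit4l at 1.25 was below Ccng1 at 1.57 at day 1 after 50 Gy, and with quantile normalization Abhd11os was at 0.73. At day 3 against 6 h, 30, 22 and 25 of 36 list genes were lower and 2, 3 and 4 higher after carbon ions, 30 Gy and 50 Gy of gamma rays. Over all genes 5509 of 13417, 3980 of 13453 and 6009 of 13450 were lower, and 2884, 2316 and 3597 higher. Celf5, Dcxr and Ddit4l went the way of most of the list, while Abhd11os and Hoatz did not.

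**Figure D5:**
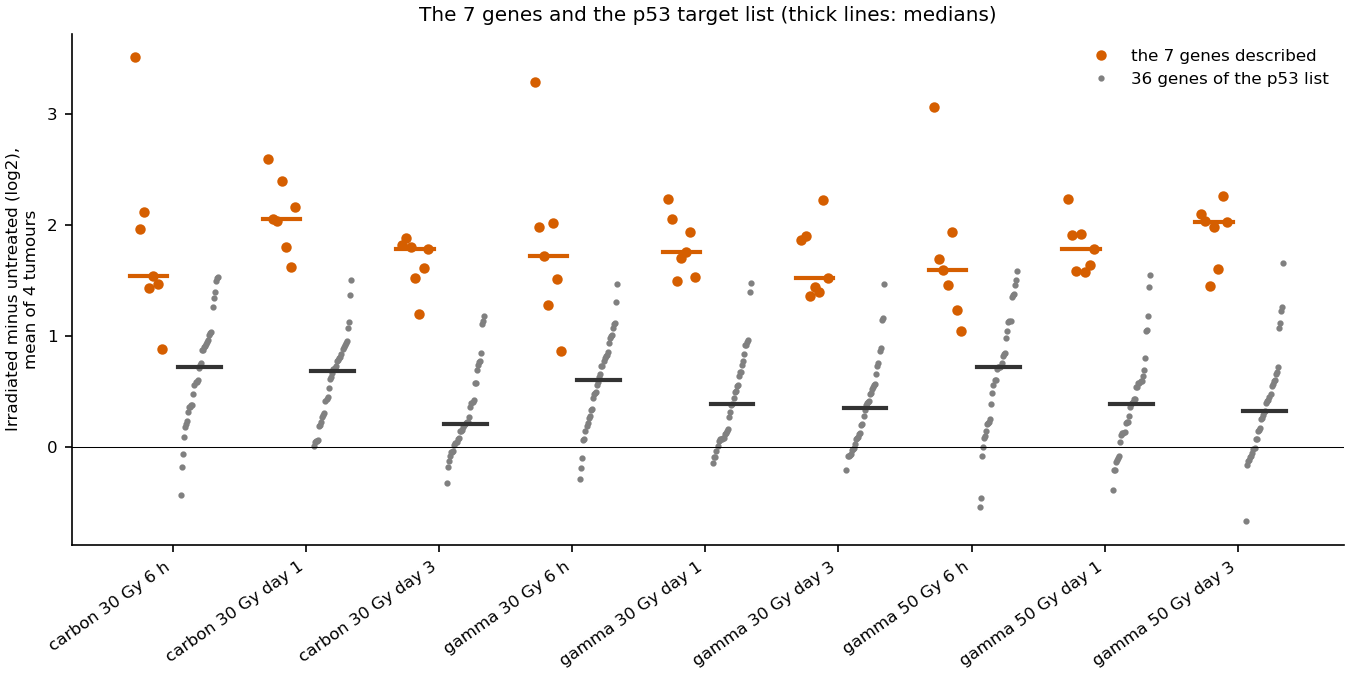
Irradiated minus untreated log2 intensity, as the mean of 4 tumours, for the 7 genes described (large points) and 36 genes of the p53 list (small points) in each of the 9 conditions; thick lines are medians. The medians of the 7 genes lie at 1.53 to 2.05 and those of the list at 0.21 to 0.73. The 7 genes, unlike the list, were chosen for their responses.

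Relatives of the 7 genes had mean responses of -0.76 to 1.51 over the 9 conditions, with medians of -0.004 to 0.18. Of 24 relatives by gene family or reaction, 12 were tested, 2 were below the filter (Celf3 and Celf6) and 10 had no probe of their own, among them 7 paralogues of Ces2e. At 6 h, day 1 and day 3, 2, 4 and 7 of the 12 rose after carbon ions (21%, 25.5% and 26.4% of all genes). At these times 1, 2 and 2 fell (19.5%, 16.6% and 41.8%). After 30 Gy of gamma rays 2, 2 and 4 rose (19.3%, 21.2% and 23.1%) and 2, 2 and 4 fell (18.4%, 21.7% and 30.9%). After 50 Gy 2, 5 and 6 rose (22.8%, 23.1% and 28.7%) and 3, 5 and 4 fell (26.9%, 45.1% and 44.7%). The highest value was that of Ptpro, another receptor-type phosphatase, which rose by 1.51 at day 3 after carbon ions (adjusted p = 1.2e-26, limma). Ddit4, the paralogue of Ddit4l, rose by 0.42 at 6 h and fell by 0.51 at day 3 after carbon ions. Celf4 rose by 0.37 at 6 h after carbon ions, and Celf1 had its lowest value, -0.76, at day 3 after 50 Gy. That Celf1 mean joins -1.17 in SCCVII and -1.18 in #8520 with -0.40 in NR-S1 and -0.31 in NFSa. Abhd11, which Abhd11os overlaps, passed in 1 of 9 conditions, at day 3 after 50 Gy (0.26, adjusted p = 4e-04, limma).

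The nearest genes with a tested probe on either side of each of the 7, 14 in all, ran from -1.12 to 0.49 over the 9 conditions. The highest was Layn, beside Hoatz, at 6 h after 50 Gy. The lowest was Ciao2b, on one side of Ces2e, at day 3 after 50 Gy. It had -2.16 in SCCVII and -2.01 in #8520, whose arrays have the raised dim end, against -0.32 in NR-S1 and -0.01 in NFSa. Of these neighbours 1, 4 and 2 of 14 rose after carbon ions at 6 h, day 1 and day 3, and 5, 2 and 7 fell. After 30 Gy of gamma rays 2, 3 and 2 of the 13 with values rose and 1, 2 and 4 fell, and after 50 Gy 3, 3 and 3 rose and 4, 5 and 7 fell. The shares of all genes that rose and fell in each condition are those given for the relatives. Abhd11os overlaps Abhd11 and Ptprv overlaps Ptpn7, and the strand that each probe reads was not examined. The 7 genes lie on 7 chromosomes.

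Likeness was measured as Pearson's r over the 44 group means, each centred on its tumour, and is a description of points that share arrays and untreated groups. It was computed against 13347 genes. Celf5, Dcxr and Ddit4l were most like Ccng1 (0.91, 0.91 and 0.88). Next came Dcxr (0.89) and Abhd4 (0.88) for Celf5, Ptprv (0.91) and Celf5 (0.89) for Dcxr, and Celf5 and Gask1b (both 0.86) for Ddit4l. Ptprv was most like Dcxr (0.91), then Ak1 (0.86) and Fndc10 (0.85). Hoatz was most like Shpk (0.85), then Ptprv (0.84) and Ephx1 (0.81). Ces2e and Abhd11os were most like each other (0.86), followed by Mgmt and Mmrn2 (both 0.85) for Ces2e and by Abca8b (0.84) and Sbsn (0.82) for Abhd11os. The 21 pairs among the 7 genes ran from 0.43 for Celf5 with Abhd11os to 0.91 for Ptprv with Dcxr (median 0.78). The group means include the untreated groups, and the 7 genes were chosen for being higher in the irradiated ones. High r among them, or with other genes that rose throughout, thus describes the choice and is no independent result.

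Markers of the cell types in which some of the 7 genes are best known were at low summed intensity. The 4 neuron markers tested summed to 3.77 to 6.13 on irradiated arrays (median 4.57) and to 3.71 to 9.26 on untreated arrays (median 4.80), and Nefl was below the filter. The 3 markers of multiciliated cells tested summed to 1.71 to 13.9 on irradiated arrays (median 2.73) and to 1.97 to 3.02 on untreated arrays (median 2.55), and Foxj1 and Dnah5 were below the filter. The 2 osteoblast markers tested summed to 1.01 to 7.22 on irradiated arrays (median 1.76) and to 1.00 to 1.99 on untreated arrays (median 1.64), and Ibsp and Dmp1 were below the filter. The hepatocyte markers Alb, Apoa1 and Ttr were below the filter as well. Neutrophil markers did move with irradiation, with sums of 4.37 to 643 on irradiated arrays (median 86.7) and 4.81 to 100.2 on untreated arrays (median 20.1), and 6, 6 and 5 of 6 rose at 6 h, day 1 and day 3 after carbon ions. After 30 Gy of gamma rays 6, 3 and 4 of 6 rose and 1 fell at day 3, with medians of 1.96, 0.13 and 0.17, while the medians of the 7 genes were 1.72, 1.76 and 1.53. After 50 Gy all 6 rose at each time, with medians of 2.83, 0.81 and 0.48. All 4 T and NK cell markers tested fell at 6 h and day 1 after either gamma dose, and 3 of them rose at day 3 (1 fell after 30 Gy), while all 4 rose at day 3 after carbon ions. After 30 Gy of gamma rays, skeletal muscle markers rose in 6 of 6 at 6 h. They fell in 4 and 6 of 6 at day 1 and day 3. After 50 Gy, 6 of these 6 rose at 6 h, 6 fell at day 1 and 5 rose at day 3. After carbon ions 3, 5 and 3 of them rose at 6 h, day 1 and day 3, and 1, 0 and 1 fell. The shares of all genes that rose and fell in each condition are those given with the p53 list. The part of the markers in the responses of the 7 genes was not tested.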

How the data were processed

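Total RNA of 88 tumour samples was hybridised to single-colour (Cy5) CodeLink arrays, per the labels. The deposited value table holds intensity on a linear scale, and array medians of 1.02 to 1.07 show that each array was scaled. For scanner software, background correction and scaling, the rule is not given in the sources used here. The deposited scaling was kept, values not above 0 (0.149%) were set to missing beside the 0.751% missing, and log2 was taken. Of 36227 probes, 21615 had 1 gene symbol, 681 several and 13931 none, and 21487 symbols were updated by Entrez number. Each gene (18069 in all, 3002 with several probes) was read from its brightest probe by mean log2, and genes in the dimmest 25% or present on under 80% of arrays were left out, which left 13465.

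A model with 44 group means was fitted to all genes with limma 3.58.1 in R 4.3.3 (prior df 7.30, residual df 44), and Benjamini-Hochberg adjustment ran over all genes, with calls at an adjusted p under 0.05. The code was tested on simulated data. Contrasts were averaged with equal weight over the 4 tumours. The small number of arrays per group, 2, limits the precision. Standard errors and 95% intervals are those of the fit. The genes named are the 7 members, the 3 named genes most like each, Cdkn1a, Mdm2 and Ccng1 with the 4 other p53 list genes of the largest mean rise at 6 h after carbon ions, and relatives and neighbours with a tested probe. Ephx1 as the highest p53 list gene, and the list genes that fell, were named after their values were seen. Members and lists were chosen with earlier results of these data known. Alternatives covered normalization, offset, filter, probe choice, variance model, untreated groups, error term, replicate block and single arrays left out. Promoters are those of RefSeq (GRCm38.p6), read with Python 3.11.15.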

Additional observations from a re-analysis of the deposited data

Results flagged for a closer look

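The response differed between the 4 tumours in 36 of 42 tests on the 7 genes after 30 Gy of either beam (limma's moderated F test with Benjamini-Hochberg adjustment over all genes). Each value below is the response of the highest minus that of the lowest tumour, on the log2 scale. Such differences were common in these data, since 36.9% to 61.9% of all genes passed the same tests, and no explanation was tested. For Celf5, Ces2e and Abhd11os, which passed the filter by their bright arrays, the tests are a description only.

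At 6 h after carbon ions the spread between tumours was 0.94 for Celf5, 2.28 for Ptprv, 1.00 for Dcxr, 0.63 for Ces2e, 1.17 for Ddit4l and 0.67 for Hoatz. At day 1 after carbon ions it was 1.63 for Celf5, 2.31 for Ptprv, 1.08 for Dcxr, 1.37 for Ces2e, 1.84 for Ddit4l, 1.76 for Hoatz and 1.15 for Abhd11os. At day 3 after carbon ions it was 0.95 for Celf5, 1.30 for Ptprv, 1.33 for Dcxr, 1.48 for Ces2e, 0.72 for Ddit4l, 2.03 for Hoatz and 2.17 for Abhd11os.

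At 6 h after 30 Gy of gamma rays the spread was 1.19 for Ptprv, 1.03 for Ces2e, 1.25 for Ddit4l and 1.15 for Abhd11os. At day 1 after gamma rays it was 0.99 for Celf5, 1.37 for Ptprv, 1.55 for Ddit4l, 1.66 for Hoatz and 0.73 for Abhd11os. At day 3 after gamma rays it was 1.355 for Celf5, 1.42 for Ptprv, 1.03 for Dcxr, 1.54 for Ces2e, 0.87 for Ddit4l, 1.71 for Hoatz and 1.19 for Abhd11os. The widest of these, that of Ptprv at day 1 after carbon ions, lay between 3.33 in #8520 and 1.02 in SCCVII.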

How the results depend on the processing

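Under every alternative run the mean responses of the 7 genes stayed above 0, with a lowest value of 0.68. The bounds for dim genes went lower. With untreated groups below the filter's limit set to it, Abhd11os at 6 h had 0.12 after carbon ions. It then had -0.12 after 30 Gy and 0.05 after 50 Gy of gamma rays. With each tumour as 1 replicate, the genes of the 7 that passed fell to 0, 0 and 0 for the beam (3, 4 and 3 over arrays) and to 0, 0 and 0 for the dose (4, 5 and 5) at 6 h, day 1 and day 3, and to 1, 0 and 0 (4, 6 and 7) for time after carbon ions, 30 Gy and 50 Gy. The p53 targets that rose were then 18, 2, 6, 2, 1, 2, 0, 0 and 0. Over NR-S1 and NFSa alone, 1, 1 and 2 passed for dose, and with quantile normalization 2 at 6 h and 2 at day 1. With the dimmest 50% left out, 3 passed for dose at day 3, 2 for time after carbon ions and 3 for tumours at day 1 after gamma rays, Celf5 and Abhd11os then being untested by construction.

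Beam differences changed sign for Ptprv (0.0282) and Hoatz (0.0198) at 6 h with the mean of all probes, for Dcxr (-0.0222) and Hoatz (0.253) at 6 h and Ddit4l (0.21) at day 3 without the untreated arms, for Abhd11os at 6 h (-0.0026) with median centring, and for Ddit4l at day 1 (-6e-04), Celf5 (0.16) and Ces2e (-0.0054) at day 3 with quantile normalization. Dose differences did so for Celf5 at day 1 with median centring (0.0168) and over NR-S1 and NFSa (0.31), where Hoatz (0.13 at 6 h, 0.27 at day 1), Ptprv (0.105) and Ddit4l (0.0933) at day 1 turned too. They did so with quantile normalization for Ptprv (0.0860), Ddit4l (0.0104) and Abhd11os (-0.596) at day 1 and Abhd11os (-0.0562) at day 3, and with the mean of all probes for Ptprv at day 1 (0.31) and Hoatz at day 3 (-0.0142). Time differences did so for Dcxr after 50 Gy with quantile normalization (0.0348) and over NR-S1 and NFSa (0.0921), where Hoatz after carbon ions had -0.21, and for Ptprv after 30 Gy of gamma rays with the mean of all probes (0.10). The causes were not tested. Of the other planned and added beam, dose and time comparisons of single genes, 59 lost and 19 gained a call and 572 did neither, of the tumour tests of single genes 20 lost and 7 gained a call and 582 did neither, and of response values 76 moved by more than the replicate spread and 613 did not.

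With single arrays left out, differences near 0 ran across it, namely the beam differences of Ptprv (-0.0521 to 0.0181, -0.0318 to 0.0303 and -0.0533 to 0.0137 at 6 h, day 1 and day 3), of Hoatz (-0.109 to 0.0261) and Abhd11os (-0.0758 to 0.112) at 6 h, and the dose differences of Celf5 at day 1 (-0.0755 to 0.0701) and Hoatz at day 3 (-0.0436 to 0.133). All 448 counts stayed within 1.5 times. Same-numbered arrays correlated at -0.19 to 0.39 over 12 sets, and these values cannot tell if arrays with the same number share an animal or a batch. With the replicate block 5 of the 7 (4 without it) passed for the beam at day 1, 5 (4) for tumours at 6 h after gamma rays, 22 (21) p53 targets rose at day 3 after carbon ions, and the other counts were equal. Dim signal limits Abhd11os, Ces2e and Celf5, which lay below the filter's limit on 32, 14 and 12 arrays.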
